A study of Mus musculus with 2 samples.

Results

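The 10 genes described here encode the ARID4 proteins and the core of the SIN3-histone deacetylase complex: Arid4a, Arid4b, Sin3a, Sin3b, Hdac1, Hdac2, Suds3, Sap30, Sinhcaf and Ing2. They were taken by name from a RefSeq table of 21887 protein-coding genes on the assembled chromosomes, in which all 10 were found. For each, every ARID4B interval that overlapped the gene record or lay within 50 kb of it was read, 14 of the 6632 intervals in all. The intervals came from chromatin immunoprecipitation and sequencing with an antibody against ARID4B, done on 1 pool of 108 testes of wild type mice at postnatal day 1.5, of a hybrid background of C57BL6/J and 129/SvEv. Input DNA of the same tissue was the control, and there was 1 library of each. No value below therefore has a replicate or a test, and the depth of either library is unknown. Whole testes were used, so no interval can be given to a cell type, and a list of intervals holds no expression values with which to check the tissue by its markers.

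SIN3A and SIN3B are large scaffolds without DNA-binding activity of their own. They hold the histone deacetylases HDAC1 and HDAC2, which remove acetyl groups from histone tails and so favour repression, and are brought to genes by other factors. SUDS3 and SAP30 are further core subunits, SINHCAF is an accessory subunit, and ING2 reads methylated lysine on histone H3 through a PHD finger. ARID4A and ARID4B are paralogous adaptors with ARID, Tudor and chromo domains. ARID4A was first known as a partner of the retinoblastoma protein, and mouse ARID4B is needed in Sertoli cells for male fertility.

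ARID4B intervals overlapped 7 of these 10 gene records, against 29.6% of all protein-coding genes, and the records of Arid4b itself, Hdac1 and Hdac2 had none. Counting Hdac1, whose interval lay beside its record at Marcksl1, 8 of the 10 had an interval within 1 kb of an end of the gene record, against 27.1% of all protein-coding genes. The same 8 had an interval inside the record or within 50 kb, where the background was 52.3%, so that the wide reach says less about these genes. In that reach 5 of the 10 had at least 2 intervals (Arid4a, Sin3a, Suds3, Sap30 and Ing2), against 26.2% of genes. Of these only Sin3a had 2 in its record, and for the others the second held the start of a neighbouring gene. Where RefSeq promoter entries gave annotated starts of transcription, 6 of 8 members (Sin3a, Sin3b, Suds3, Sap30, Sinhcaf and Ing2) had a start inside an interval, against 24.3% of the 17492 protein-coding genes with an entry.

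**Figure D1:**
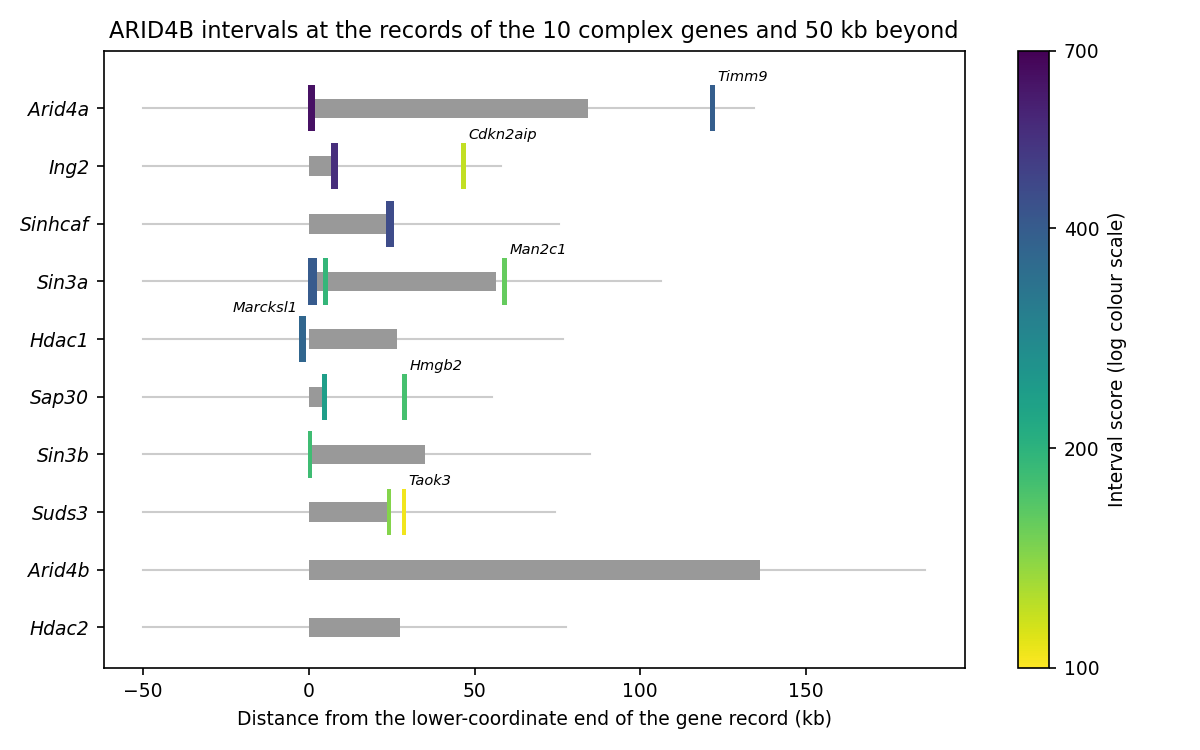
Gene records of the 10 members (grey bars, drawn from the end with the lower coordinate, in kb), 50 kb on either side (thin lines) and the 14 ARID4B intervals in reach (coloured bars, colour by score on a log scale, drawn at least 1.2 kb wide). Names above bars give the protein-coding gene whose end is nearest where it is not the member. The 2 lowest rows, Arid4b and Hdac2, hold no interval.

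The promoters of 6 of these genes are shown, from members with and without an interval. Those of Sap30 and Sin3b and the second start of Sinhcaf, all inside intervals, are not printed. Each is the 250 bases before an annotated start and the first 30 from it on, 5′ to 3′ on the gene's strand, from RefSeq on GRCm38.p6. Capitals mark matches, on either strand, to the GC box GGGCGG, the motif CCAAT and the ETS motif CCGGAAG. The TATA box motif TATAAA was found only at Sin3b, which is not printed. Ing2 (chr8:47675130-47675409, minus strand), Sinhcaf (chr6:148946441-148946720, minus) and both starts of Sin3a (chr9:57071790-57072069 and chr9:57076126-57076405, plus) lay in intervals of high to middling score, and Suds3 (chr5:117115964-117116243, minus) in the weakest. Hdac2 (chr10:36974294-36974573, plus) and Arid4b (chr13:14063534-14063813, plus) lay in none.
Ing2: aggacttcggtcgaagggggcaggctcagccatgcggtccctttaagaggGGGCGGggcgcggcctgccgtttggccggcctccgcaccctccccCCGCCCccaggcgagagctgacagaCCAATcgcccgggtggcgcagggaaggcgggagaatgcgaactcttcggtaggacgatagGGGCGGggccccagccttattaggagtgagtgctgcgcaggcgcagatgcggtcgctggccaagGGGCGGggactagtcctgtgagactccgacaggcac
Sinhcaf: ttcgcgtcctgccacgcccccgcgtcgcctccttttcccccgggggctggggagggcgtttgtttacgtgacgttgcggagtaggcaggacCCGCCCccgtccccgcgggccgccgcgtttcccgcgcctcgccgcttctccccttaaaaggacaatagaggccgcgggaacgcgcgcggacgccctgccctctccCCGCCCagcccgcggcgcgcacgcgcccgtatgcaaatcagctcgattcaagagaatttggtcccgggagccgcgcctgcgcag
Sin3a, upstream start: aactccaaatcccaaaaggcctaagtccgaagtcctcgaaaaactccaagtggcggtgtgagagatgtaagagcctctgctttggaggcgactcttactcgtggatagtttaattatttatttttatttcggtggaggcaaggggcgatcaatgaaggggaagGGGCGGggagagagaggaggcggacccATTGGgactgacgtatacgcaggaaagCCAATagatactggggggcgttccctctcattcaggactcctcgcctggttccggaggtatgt
Sin3a, downstream start: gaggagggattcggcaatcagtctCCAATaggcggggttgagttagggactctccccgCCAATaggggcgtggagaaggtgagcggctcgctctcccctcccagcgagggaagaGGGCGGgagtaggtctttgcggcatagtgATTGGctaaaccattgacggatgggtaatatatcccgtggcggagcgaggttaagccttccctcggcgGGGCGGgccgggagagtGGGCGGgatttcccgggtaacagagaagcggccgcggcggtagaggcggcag
Suds3: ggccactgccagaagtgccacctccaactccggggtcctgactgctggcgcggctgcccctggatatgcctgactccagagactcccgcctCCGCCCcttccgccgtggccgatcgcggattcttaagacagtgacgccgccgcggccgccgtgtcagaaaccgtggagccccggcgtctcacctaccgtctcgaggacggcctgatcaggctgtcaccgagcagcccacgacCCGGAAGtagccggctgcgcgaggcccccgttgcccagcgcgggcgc
Hdac2: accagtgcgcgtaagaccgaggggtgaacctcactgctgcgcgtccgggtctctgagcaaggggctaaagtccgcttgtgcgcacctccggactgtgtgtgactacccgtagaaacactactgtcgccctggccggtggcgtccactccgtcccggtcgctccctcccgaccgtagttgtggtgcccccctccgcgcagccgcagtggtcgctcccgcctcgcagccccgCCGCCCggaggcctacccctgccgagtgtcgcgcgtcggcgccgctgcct
Arid4b: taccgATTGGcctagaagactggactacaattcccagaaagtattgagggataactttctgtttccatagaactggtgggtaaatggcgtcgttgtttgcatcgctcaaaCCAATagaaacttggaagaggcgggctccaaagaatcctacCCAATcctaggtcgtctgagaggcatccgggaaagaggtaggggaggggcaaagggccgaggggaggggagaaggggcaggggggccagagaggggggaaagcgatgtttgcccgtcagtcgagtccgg

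Among the adaptors, Arid4a carried the strongest interval of the whole group and Arid4b none. The Arid4a interval (chr12:71014890-71016833, 1944 bp wide) had a score of 639.41 and rank 52 of all 6632 intervals. The score is the authors' own value for each interval and is used here only to rank intervals within their list. The interval reached from 191 bp outside the lower end of the Arid4a record (chr12:71015081-71099351) to 1752 bp inside it. It also covered the annotated start of the long noncoding RNA gene 3110056K07Rik, on the minus strand 742 bp inside the Arid4a record. No interval lay within 1 kb of the other end of Arid4a.

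The Arid4b record (chr13:14063609-14199603, 136.0 kb long) held no interval, and the nearest lay 322.5 kb away at an end of Hecw1, a ubiquitin ligase gene (chr13:14522077-14523318, score 160.12). Such isolation is not rare, since 22.0% of protein-coding genes had no interval as near as this. The annotated start of Arid4b lies 296 bp from that of Ggps1, which encodes an enzyme of isoprenoid synthesis and is read from the opposite strand. The stretch between both starts, most of which is the Arid4b sequence printed above, was thus free of intervals for either gene. An interval missing from the list says only that enrichment there did not reach the authors' limit at this unknown depth.

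The scaffold genes both had intervals, and Sin3a had more of them. In the Sin3a record (chr9:57071991-57128368) the first interval (chr9:57071899-57074578, score 402.47, rank 238) covered the upstream annotated start. The second (chr9:57076206-57077689, score 192.75, rank 1515) covered the downstream start, 4336 bp further along. The 2 intervals were separated by 1627 bp, so each annotated start of Sin3a had an interval of its own. At 2680 bp the first was also among the widest of the list (rank 76 by width). Sin3b had a single interval at its only annotated start (chr8:72722950-72724363, 1414 bp, score 183.03, rank 1670). A score without a replicate has no error, so the order of Sin3a and Sin3b cannot be tested.

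Of the deacetylase genes neither had an interval that overlapped its record. The interval counted for Hdac1 (chr4:129513165-129515371, 2207 bp, score 372.07, rank 293) ended 733 bp short of the Hdac1 record (chr4:129516104-129542646). Its last 1791 bp lay inside the neighbouring record of Marcksl1, a gene for an actin-binding protein that is a substrate of protein kinase C. The annotated start of Marcksl1 lay 416 bp inside this interval, and the interval's midpoint was 687 bp from that start but 1836 bp from the end of Hdac1. The other end of Hdac1 had no interval within 1 kb. By position the interval belongs more closely to Marcksl1 than to Hdac1.

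Hdac2 (chr10:36974297-37001889) had no interval nearer than 134.3 kb, and 33.4% of protein-coding genes were as far or farther from one. That nearest interval (chr10:37136195-37137800, score 218.09) lay wholly inside the record of Marcks, the paralog of Marcksl1. Both deacetylase genes therefore had a MARCKS family gene as the site of their closest interval, next door for Hdac1 and across 131.4 kb of sequence for Hdac2.

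The genes of the smaller subunits all had an interval over their own start. Ing2 (chr8:47667178-47675159) had the second highest score of the group, 540.77 (rank 86), in an interval of 2342 bp at chr8:47673811-47676152. Sinhcaf (chr6:148921057-148946470) followed with 450.42 (rank 169). Its interval of 2440 bp at chr6:148944278-148946717 covered both annotated starts, which lie 1644 bp apart. Unlike at Sin3a, where the starts are farther from each other, the pair of starts thus shared 1 interval. Sap30 (chr8:57482702-57487860) had 237.32 (rank 969, 1395 bp, chr8:57486713-57488107). Suds3 (chr5:117091678-117115993) had the lowest score of the 8, 143.65 (rank 2610, 1222 bp, chr5:117115305-117116526), which is still above the median of the list.

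Scores of the members were high for this list. Over the 8 members with an interval at an end, the median best score was 387.27 (range 143.65 to 639.41), and without Hdac1 it was 402.47 over 7. Over all 5930 protein-coding genes with such an interval the median was 132.24, and all 8 members lay above it. Among those genes Arid4a ranked 54, Ing2 90, Sinhcaf 177, Sin3a 251 and Hdac1 308, which places 5 of the 8 in the top 10% (scores of at least 296.33). Sap30 (rank 1012), Sin3b (1715) and Suds3 (2594) lay lower. No member scored between 237.32 and 372.07, but the upper of these values is that of Hdac1, whose interval lay at Marcksl1. Hdac1 is also among the 5 in the top 10%. With 8 values and no replicate, such a gap does not divide the members into groups.

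**Figure D2:**
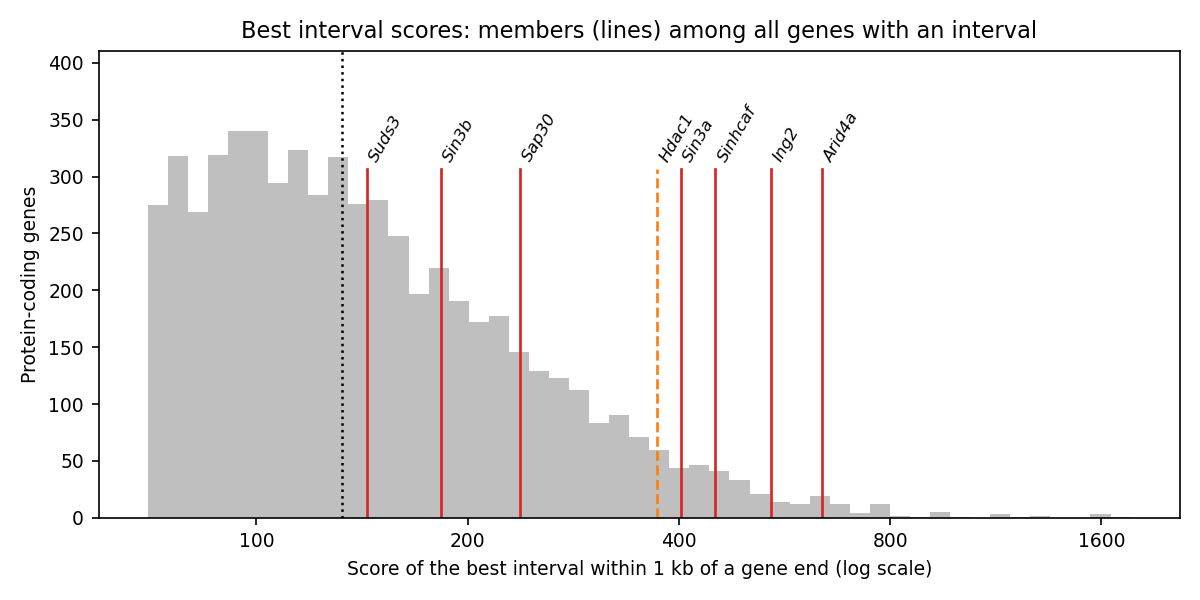
Scores of the best interval within 1 kb of a gene end (log axis) for the 5930 protein-coding genes with one (grey histogram, genes per bin), with their median of 132.24 (dotted line) and the 8 members (red lines, Hdac1 dashed in orange because its interval lies at Marcksl1). All 8 lie to the right of the median.

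At their own starts the members' intervals extended mostly into the gene. Of 10 annotated starts of members, 8 lay inside an interval, and the interval's midpoint was downstream of the start for 7 of these. The upstream start of Sin3a was the most lopsided, with 141 bp of the interval before it and 2538 bp after it (midpoint 1198 bp downstream). At the downstream start of Sin3a the midpoint was 571 bp downstream, at Sap30 450 bp, at Sin3b 386 bp, at Ing2 178 bp and at Suds3 78 bp. At Sinhcaf the midpoint fell between the starts, 973 bp downstream of the first and 671 bp upstream of the second. For the 3333 protein-coding genes with a single annotated start and that start inside an interval, the median midpoint lay 194 bp downstream (quartiles 58 and 319 bp), and downstream for 80.9%. Midpoints thus lay downstream in the list as a whole too, and those at Sap30, Sin3b, both starts of Sin3a and the first of Sinhcaf lay farther downstream than its upper quartile. Sin3a and Sinhcaf, with more than 1 annotated start, are not of the kind of gene counted there. Wider intervals allow larger offsets.

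**Figure D3:**
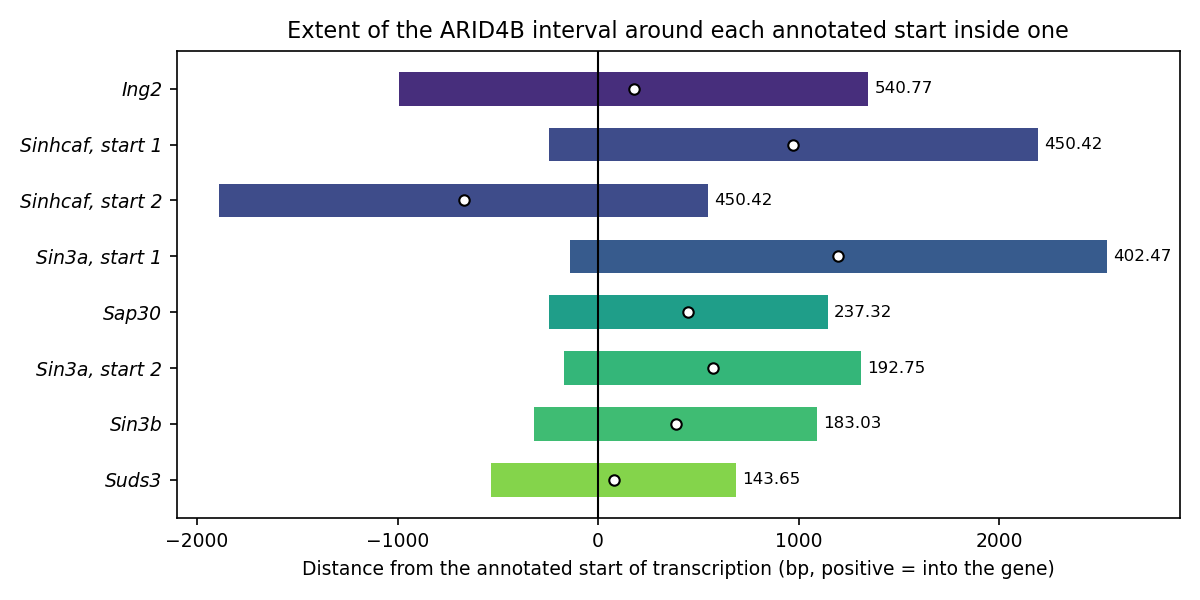
Extent of the ARID4B interval (bars, bp) around each of the 8 annotated starts of members that lie inside one, with the start at 0 and positive values into the gene. White points mark the midpoint, numbers give the score and colour follows the score. In 7 of 8 rows the midpoint lies downstream of the start.

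Several members shared their interval with a noncoding RNA gene. The best intervals of 5 of the 8 members (Arid4a, Sin3a, Sap30, Sinhcaf and Ing2) also lay within 1 kb of an end of a long noncoding RNA record, against 13.6% of the 5930 protein-coding genes with an interval. All of these intervals held the annotated start of that RNA gene as well. At Sin3a the start of Gm10658 lay 74 bp from the upstream start, at Sap30 that of 2500002B13Rik 103 bp away, at Ing2 that of AA386476 232 bp away, and at Sinhcaf that of 3010003L21Rik 31 bp from the second start. In these 4 cases the RNA gene and the member are on opposite strands. Hdac1, Sin3b and Suds3 had no such partner. An interval at paired starts cannot be given to either gene by position.

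The remaining intervals within 50 kb each held the annotated start of a neighbour. The interval 36.6 kb beyond Arid4a (score 393.03) held the diverging starts of Timm9, a mitochondrial import chaperone gene, and 2700049A03Rik. The one 2.02 kb beyond Sin3a (157.85) lay at Man2c1, an alpha-mannosidase gene, and the one 3.81 kb from Suds3 (104.29) at Taok3, a protein kinase gene. Those 23.0 kb from Sap30 (178.02) and 37.9 kb from Ing2 (119.42) lay at Hmgb2, a chromatin protein gene, and at Cdkn2aip. None of these 5 was nearer to an end of the member than to one of the neighbour. Just outside the 50 kb reach the closest intervals lay 57.7 kb from Hdac1 (258.26) and 60.6 kb from Sin3b (84.52). The nearest protein-coding ends were those of Tmem234 and Nwd1 in turn, but Nwd1 had no interval within 1 kb of an end.

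The members without an interval differed from each other in base composition. In the window of 250 bases before the start and 30 from it, the GC content of Hdac2 was 70.0% with 34 CpG and an observed to expected CpG ratio of 1.01. Suds3 (70.4%, ratio 0.939) and the second start of Sinhcaf (72.1%, ratio 1.08) lay within 5 percentage points and 0.1 of these values and had intervals. Arid4b had 54.6% GC, 12 CpG and a ratio of 0.629, as near to Sin3b (53.2%, 13 CpG, 0.667), which had an interval. Across all protein-coding promoters the median was 65.0% GC and a ratio of 0.839 for the 4855 starts inside an interval, against 53.2% and 0.389 for the 16408 outside. Of the 1118 promoters within 5 percentage points of Hdac2 in GC and within 0.1 in CpG ratio, 60.3% had their start inside an interval. For the 1280 promoters as close to Arid4b the share was 25.3%. Among member starts inside an interval, it was 25.5% for Sin3b, 31.1% for the upstream start of Sin3a and 37.7% for Sap30. For the other member starts inside an interval it lay between 47.2% and 62.8%. Most promoters composed like that of Hdac2 thus had an interval, and most composed like that of Arid4b had none. The part of composition in either absence was not tested, and these tolerances were chosen with the values known.

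**Figure D4:**
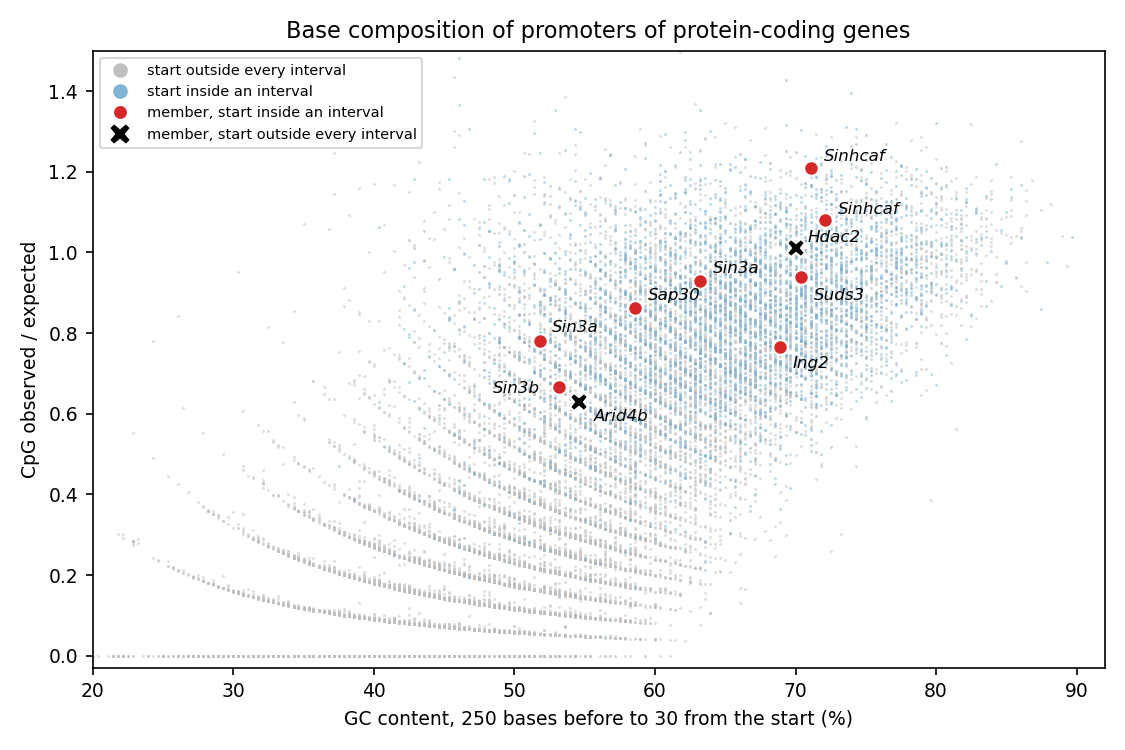
GC content (%) and observed to expected CpG ratio of protein-coding promoters, grey where the start is outside every interval and blue where it is inside one, with the 8 starts of members inside an interval (red circles) and those of Hdac2 and Arid4b (black crosses). 3 of the promoters lie beyond the axes. The cross of Hdac2 lies among GC-rich promoters and that of Arid4b among promoters of lower GC content.

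The short motifs searched gave 1 common match among the members. GGGCGG was found in 9 of the 10 member windows, against 45.1% of all protein-coding promoters, 74.7% of those with the start inside an interval and 36.3% of the others. Ing2 held 4 copies, at 200, 155, 70 and 6 bases before the start, and the downstream start of Sin3a held 3. Arid4b was the window without one and held CCAAT 3 times, as did the downstream start of Sin3a. CCAAT was found in 4 of 10 windows (37.2% of all promoters), CCGGAAG in that of Suds3 alone (11.1%) and TATAAA in that of Sin3b alone (12.2%). None of the 10 held TTTGGCGC or TTTCGCGC (E2F, 0.578% and 0.423% of all promoters), GCATGCGC (NRF1, 3.35%), TGACGTCA (CRE, 2.19%), CACGTG (E-box, 7.49%) or AAGATGGCG (YY1, 1.32%). Both strands were searched, and a match is a run of letters and not a shown binding site.

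Further genes of the complex were read in the same way. Of 14 further SIN3 subunits and associated proteins, 5 (35.7%) had an interval at an end, close to the 27.1% of all genes. Within 50 kb of the record 13 of the 14 had one, against 8 of the 10 members and 52.3% of all genes. Those with an interval at an end were Phf12, a PHD finger gene (349.61), the histone demethylase gene Kdm5a (251.79, shared with Ccdc77), the histone chaperone genes Rbbp4 (198.24, shared with Zbtb8os) and Rbbp7 (71.92), and Sap30l, the paralog of Sap30 (188.01). Ing1, the paralog of Ing2, was missed at its record ends by 12 bp: its interval (chr8:11556774-11558838, score 634.44) began 1012 bp inside the record and covered an annotated start. With it, both genes of the Ing1 and Ing2 pair carried strong intervals. Both of Sin3a and Sin3b and both of Sap30 and Sap30l also had one. Arid4b and Hdac2 lacked the interval counted for their paralogs, but the one counted for Hdac1 lay outside its record, at Marcksl1. Sap18, Sap130, Sap25, Brms1, Brms1l, Morf4l1, Ogt and Tet1 had none in their records, with the nearest between 1.45 kb (Brms1) and 165 kb (Ogt) away.

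Related families differed from each other in the share of genes with an interval, without a test of the differences. All 3 retinoblastoma family genes, the partners of the ARID4 proteins, had one at an end, against 27.1% of all protein-coding genes. Rbl2 (155.97) and Rbl1 (143.5) were covered at an annotated start. The interval of Rb1 (82.68) was weak, below the list median of 125.0. Of 12 other ARID genes 6 had one, led by Arid3a (464.52), Kdm5b (418.77, shared with Mgat4e) and Arid1b (254.3). Arid1a had none at an end but 2 intervals inside its record, the better with a score of 545.45. Of the 9 other classical histone deacetylase genes 1 had an interval at an end, Hdac3 (116.08, shared with Rell2), and Hdac4 had a weak one inside its record (71.06). That of Hdac3 scored below the median of the list. Within 50 kb 5 of these 9 had an interval, near the 52.3% of all genes, and at an end most protein-coding genes have none.

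**Figure D5:**
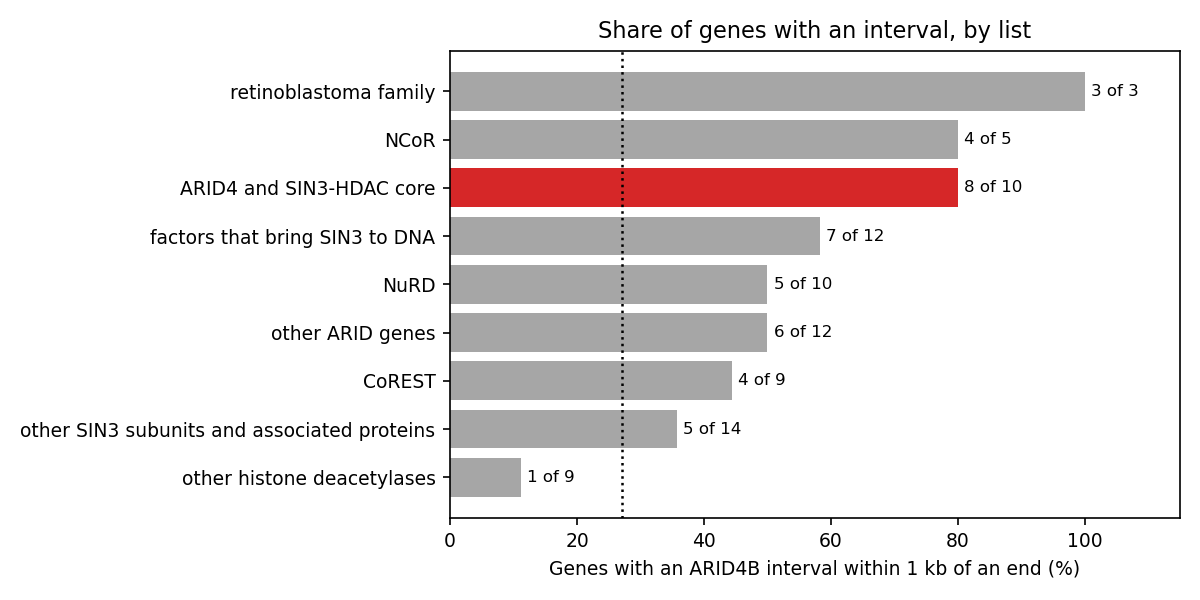
Share of genes (%) with an ARID4B interval within 1 kb of an end of the record, for the 10 members (red) and 8 related lists (grey), with counts beside the bars. The dotted line is the 27.1% of all protein-coding genes. Hdac3 and Kdm5a stand in 2 lists each.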

How the data were processed

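For the ARID4B library 1 list was used, in which the authors deposited a position and a score for each interval. Per the submitters' processing notes BWA, MACS and build mm9 were used, while the list is named for mm10. For their versions, parameters and filters the notes, labels and list state nothing. The scale of the score is not stated, so it was used only to rank intervals within the list. Positions were read as GRCm38 (mm10), printed counting from 1: of 6448 intervals on chromosomes of the promoter table, 61.1% held an annotated start of a protein-coding gene in place and 1.85% or 1.64% when moved by 5 kb either way.

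Genes and records came from a RefSeq table of GRCm38.p6, and starts, strand and sequence from a RefSeq promoter table, in which 8 of the 10 members (not Arid4a and Hdac1) were matched by symbol. Any overlap of at least 1 bp counted. All members were named, with all other SIN3 and retinoblastoma family genes, the 3 best of each other list, and neighbours at an interval. Ing1, Arid1a, Hdac4, Marcks and the promoters alike in composition were singled out after their values were seen. The members and lists were chosen with earlier results of these data known, and no test was run. 1 listed gene was left out of all list counts. Steps were checked on planted intervals (Python 3.11.15, pandas 2.3.3, numpy 2.4.6).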

Additional observations from a re-analysis of the deposited data

How the results depend on the processing

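The count of 8 members with an interval at an end was 7 with 500 bp windows (Hdac1 lost, background 25.3%). By midpoint instead of overlap it was 6 (Hdac1 and Sin3a lost, background 24.7%). It was 8 with 5 kb windows (background 32.1%) and 8 with intervals scoring above the median, where the background fell to 14.8%. Counted within 1 kb of annotated starts it was 6 of 8 (background 28.0%). A background of genes with a curated transcript was 27.9%, and of genes in the promoter table, added after the data were examined, 27.2%. The count within 50 kb stayed at 8 for 10 kb (background 36.6%) and 100 kb (62.4%), and was 7 for the record only (29.6%) and for intervals nearest to the member (27.2%). The members' median best score of 387.27 became 402.47 with 500 bp windows, 343.87 by midpoint and 402.47 without Hdac1, the last added after the data were examined. Across the other lists together, 33 of 72 genes had an interval, against 27.1% of all protein-coding genes. Under these alternatives the count lay between 26, with intervals above the median score (background 14.8%), and 40, with 5 kb windows (32.1%). With intervals scoring above the median, the count of 1 among the other histone deacetylases, Hdac3, fell to 0. That of 3 in the retinoblastoma family fell to 2, without Rb1. Of the related lists only the other ARID genes kept their count there. The unknown depth sets the lowest enrichment that could be listed. No paired analysis was possible because there was 1 ChIP library.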

Other observations

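Other complexes that hold HDAC1, HDAC2 or HDAC3 also had intervals at their genes. Of 5 NCoR genes 4 had one at an end, the best at Gps2 (score 272.69, shared with Neurl4), the corepressor gene Ncor1 (222.78, shared with Pigl) and Tbl1xr1 (139.97), against 27.1% of all protein-coding genes. Of 10 NuRD genes 5 had one, led by the remodeller gene Chd4 (335.49, shared with Nop2), Cdk2ap1 (211.59) and Mta2 (197.59, shared with Eml3). The interval counted for Chd4 lay outside its record, and the one that overlapped the record scored 330.4. Of 9 CoREST genes 4 had one, with Rcor2 (205.4), Rcor1 (170.29) and Rcor3 (169.91) first, and none lay at the demethylase gene Kdm1a.

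Among 12 factors that bring SIN3 to DNA, 7 had an interval at an end. The best were at Rest, a repressor of neuronal genes (342.13), at Mnt (214.91) and Foxk1 (181.65). Mxi1 had none at an end of its record but one inside it, with a score of 312.89, and an annotated start inside an interval. These lists are short, share genes with each other and were not tested.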
